A study of Triticum aestivum with 20 samples.

Results

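The chromatin of wheat leaf without cold treatment was described from 1 segmentation of the genome, in which each stretch of the 21 chromosomes carries 1 of 9 chromatin states, E1 to E9. All segments of leaf were taken and none was chosen by its values. They rest on 10 of the 20 libraries of the series, and their segmentation is 1 of 2. Neighbouring segments of the same state were merged, which turned 1603362 deposited segments into 1026958. They tile 14066 Mb of IWGSC RefSeq v1.0, the genome build to which the reads were aligned.

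The study profiled leaf and vernalized leaf of Triticum aestivum, the hexaploid bread wheat, in the winter cultivar AK58. Leaf came from young plants grown at greenhouse temperatures, and only this condition is described here. Its 10 libraries were ChIP-seq (sequencing of chromatin fragments recovered with an antibody) for H3K4me3, H3K36me3, H3K27ac and H3K27me3, with 2 libraries for each mark, and 2 input libraries, numbered as replicates with no statement of separate plants. Accessibility comes from ATAC-seq libraries that are not among these 20 samples. Whole leaf holds many cell types, and marks that lie on different cells or on different gene copies of a locus cannot be told apart from marks that lie together.

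H3K4me3 and H3K27ac mark the starts of transcribed genes in plants, and H3K36me3 lies over the transcribed part of active genes. H3K27me3 is laid down by Polycomb complexes over genes that are kept silent, often across whole genes and clusters of them. Accessible chromatin, read by the cutting enzyme of ATAC-seq, marks promoters and other regulatory DNA. Wheat carries the sub-genomes A, B and D, each with 7 chromosomes, and most of its DNA consists of transposons.

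The states combine these signals, and the meaning of each number follows the order in which the study shows them, which could not be checked from the state labels. E1 carries accessibility with H3K4me3, H3K27ac and H3K36me3, as the start of an active gene does, E2 carries mainly H3K36me3, E6 accessibility with little H3K27ac, and E7 accessibility alone. These 4 are called activated. E5 carries H3K27me3 alone and is called repressed. E3, E4 and E8 join H3K27me3 to other signals and are called mixed, where E3 has all active signals, E4 little H3K4me3 and H3K27ac, and E8 accessibility. E9 carries no signal and is called unmodified. States were called in bins of 200 bp, so no segment can be shorter. The data are 1 segmentation without values per library, so no spread between replicates can be given, and shares are counts over all segments of that segmentation.

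The states differed widely in how long they ran. E1, E7, E3 and E8 mostly came in pieces of 1 to 3 bins, E2 and E4 were longer, and E5 formed the long stretches. E1 had 88086 segments with a median length of 400 bp, and 49.5% of them were a single bin. E7 was the shortest state, with 151484 segments, a median of 200 bp and 65.1% in a single bin, and its longest segment spanned 2800 bp, on chromosome 2A between 410876801 and 410879600. E6 had only 15941 segments, but its median of 600 bp was longer than that of E7. The longest E6 segment, of 7200 bp, lay on chromosome 1A between 38854601 and 38861800.

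E2 covered 277.7 Mb in 187934 segments with a median of 600 bp and a mean of 1478 bp. The longest, of 48200 bp, lay on chromosome 3B between 810126201 and 810174400, with E1 on one side and E9 on the other. The longest E1 segment spanned 24400 bp on chromosome 4B between 334078601 and 334103000, where the mean of the state was 455 bp. E5 had 160414 segments with a median of 1800 bp and a mean of 3722 bp. A small number of long segments held much of E5: the 13165 segments of at least 10000 bp held 40.6% of its bases. The longest, 244600 bp on chromosome 7A between 730058001 and 730302600, had E9 on both sides.

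The mixed states stayed short. E3 had 8999 segments, the fewest of the 9 states, with a median of 400 bp, and the longest of them spanned 5800 bp on chromosome 5A between 440499001 and 440504800. E4 had 70405 segments with a median of 600 bp, and E8 had 20058 with a median of 400 bp. The longest E4 segment spanned 7800 bp on chromosome 7B, between 680644601 and 680652400, and the longest E8 segment 7600 bp on chromosome 7D, between 619188001 and 619195600. Both lay beside E5, the E4 segment on both of its sides. The plot of segment lengths shows how far E5 lies from the other states on a log scale.

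**Figure D1:**
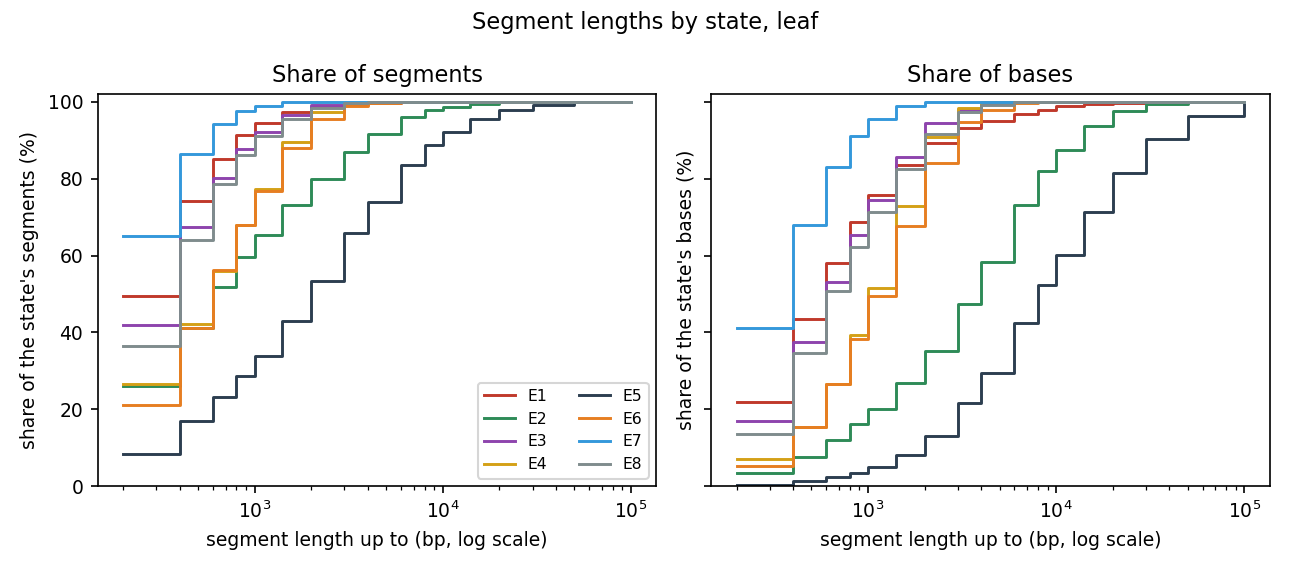
Cumulative length of segments for the states E1 to E8 in leaf, as a share of the segments of a state (left) and as a share of its bases (right), against segment length in bp on a log scale. E7 rises first, with 65.1% of its segments at 200 bp, and E5 last, with 40.6% of its bases in segments of at least 10000 bp.

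The deposited segments are finer than the states they name. In the deposited list, 576404 borders separate neighbours that carry the same state. These inner borders were found in E1 (43459), E2 (232009), E3 (399), E4 (11900), E5 (148857) and E9 (139780). None of the 15941 E6, 151484 E7 and 20058 E8 segments was divided. One stretch of E5 was deposited in 75 pieces. All values below use merged segments.

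The next question was which states lie side by side. Each state had most of its borders with a few others. Apart from E9, the neighbours fell into an active circle of E1, E2, E6 and E7 and an H3K27me3 circle of E4, E5, E8 and E3. Of the 1026937 borders between merged segments, 63.0% had E9 on one side and 379701 joined modified states. All 36 possible pairs of states occurred, so no neighbourhood was absent. Their frequencies spanned a wide range, with 222701 borders of E7 with E9 and 1 border of E5 with E6.

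E1, the state of active gene starts, bordered E2 at 56.1% of its borders, E7 at 23.3% and E9 at 13.9%. As E2 holds 20.02% of the borders of all other states together, E1 met E2 2.80 times as often as that share. For the rarer E6, with 5.03% of the borders of E1, this ratio was 2.96. Counted by segment, 83.7% of E1 segments touched E2 on at least 1 side. This share varied little between chromosomes, with 82.6% on 2B as the lowest and 84.9% on 1D as the highest. The commonest setting of an E1 segment was between E2 and E7 (30.6%), followed by E2 on both sides (28.5%) and E2 with E9 (18.5%).

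E1 with E2 on both sides was also shorter, with a median of 200 bp against 400 bp for E1 between E2 and E7. Only 1689 E1 segments, 1.92%, stood alone in E9. E2 was less bound to its partner, since 59.2% of its borders were with E9 and 26.3% with E1. In all, 35.96% of E2 segments stood alone, with a median of 600 bp, and 27.6% lay between E1 and E9, with a median of 1200 bp. An E2 stretch with E1 on one side and E9 on the other was therefore longer at the median than an E2 stretch on its own.

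The states of accessible chromatin had opposite surroundings. E7, accessibility alone, bordered E9 at 73.5% of its borders, and 55.7% of E7 segments stood alone in E9. E6, accessibility with a little H3K27ac, bordered E9 at 0.449% of its borders, which is 143 borders. It bordered E2 at 51.6%, E1 at 27.8% and E7 at 19.9%. None of the 15941 E6 segments stood alone, and 29.0% lay between E1 and E2. E8, which joins accessibility to H3K27me3, stood alone in 35 of 20058 segments and bordered E5 at 73.1% of its borders.

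In the H3K27me3 circle, E4 and E8 lay inside E5. E4 bordered E5 at 81.8% of its borders, 4.88 times the share that E5 holds among the borders of the other states, and 70.9% of E4 segments had E5 on both sides. For E8 this setting held 53.7% of segments. E5 itself bordered E9 at 52.2% and E4 at 35.9% of its borders. It stood alone in 27.2% of its segments (55.4% when segments under 600 bp are counted as E9) and lay between E4 and E9 in 38.5%. E3, which carries all signals, bordered E4 at 35.4%, E8 at 28.5% and E5 at 15.5% of its borders.

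Seen from the activated states, the circles touched seldom. E1 had 472 borders with E5, 0.268% of its borders, and E6 had 1 border with E5 and 3 with E3. E2 met E5 at 3500 places and E4 at 6917, and E7 met E5 at 2110 and E8 at 2639. As shares of their own borders these were all small for the activated states, the largest being 1.84% for E2 with E4. From the other side the contact was closer for the rare mixed states. E3 had 8.82% of its borders with E1, 5.54% with E2 and 5.33% with E7, and 12.6% of E8 segments touched E7. The map of borders gives the full set of shares.

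The favoured neighbourhoods held on each chromosome. The share of E4 segments that touched E5 was lowest on 4D with 89.1% and highest on 7D with 94.3%. For E8 and E5 it was lowest on 6D with 89.7% and highest on 7B with 94.4%, and for E7 and E9 lowest on 3A with 90.1% and highest on 4B with 93.1%. The widest range of those examined was that of E3 beside E4, from the rarest state, with 55.1% on 6B and 65.8% on 1A. These values describe chromosomes of 1 segmentation and carry no test.

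**Figure D2:**
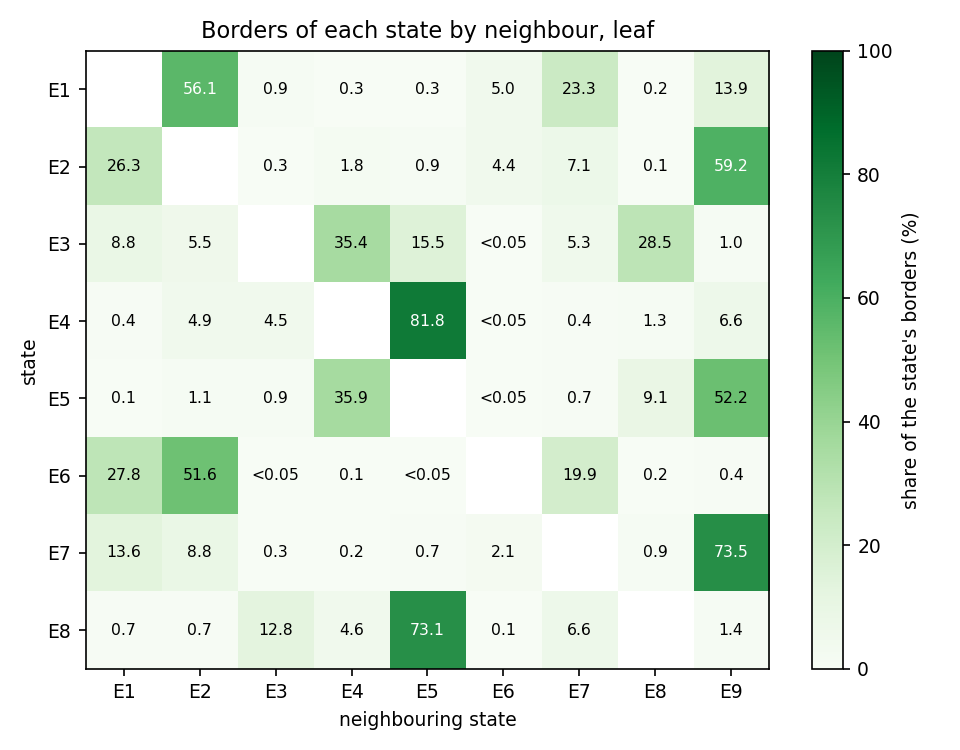
Share of the borders of each state (rows, E1 to E8) that each neighbouring state holds (columns, E1 to E9), in percent, for merged segments of leaf. The darkest cells are E4 beside E5 (81.8%), E7 beside E9 (73.5%) and E8 beside E5 (73.1%), and the cell of E6 beside E9 is nearly white (0.449%).

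Segments were next joined into blocks, a block being an unbroken run of states other than E9. Leaf held 323620 blocks, which covered 1043 Mb, 7.42% of the genome. Most blocks were short and made of 1 state, while most modified bases lay in the longer blocks of several states. The median block spanned 1000 bp and the mean block 3224 bp, and the median depended on short elements, with 1800 bp when segments under 600 bp are counted as E9, 1600 bp when E6 and E7 are, and 2200 bp when E9 runs of up to 1000 bp are bridged. Blocks of a single state made up 61.3% of blocks and 27.7% of block bases. The number of blocks with 8 states, every modified state at once, was 48.

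Blocks were called activated where they held only E1, E2, E6 or E7, repressed where they held only E5, mixed where they held E3, E4 or E8 with or without E5, and composite where activated states stood in 1 block with E5 or a mixed state. Activated blocks numbered 225782, 69.8% of all, with a median of 600 bp, and held 34.3% of block bases. Mixed blocks numbered 37640, 11.6% of all, but with a median of 6200 bp they held 39.2% of block bases. Repressed blocks, 43555 in number, had a median of 2200 bp and 16.8% of block bases. Composite blocks were the rarest with 16643, and held 9.67% of block bases with a median of 3400 bp.

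Among blocks of 1 state, E7 was the commonest with 84320 blocks and a median of 200 bp. E2 followed with 67582 blocks and a median of 600 bp, and E5 with 43555. E1 gave 1689 such blocks, E4 1084, E8 35, E3 1 and E6 0. Accessible chromatin without another signal was thus the most frequent kind of modified block in leaf, although its blocks held 25.9 Mb only, against 174.8 Mb for E5 alone.

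The longest block of leaf was mixed. It lay on chromosome 1D between 9178201 and 9562800, spanned 384600 bp and was divided into 36 segments, of which 17 were E5, 13 E4, 5 E8 and 1 E3. E5 held 96.4% of its bases, in pieces of 400 to 74000 bp, and no E4 piece in it exceeded 2600 bp. The block with the most segments, 56, lay on chromosome 5B between 691396001 and 691489600 and spanned 93600 bp. It alternated faster, with 23 E5 segments of at most 8800 bp and 19 E8 segments, and E8 held 24.1% of its bases.

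The longest activated block lay on chromosome 6B between 387078801 and 387161600 and spanned 82800 bp. It read E2, E1, E2, E1, E2, E1, E2, E1, E2 along the chromosome, with lengths of 7000, 7600, 1600, 1800, 22400, 1200, 2200, 15600 and 23400 bp. Its E1 pieces of 7600 and 15600 bp were far above the median of that state. The longest composite block spanned 262000 bp on chromosome 4B between 3521601 and 3783600. Of its 27 segments, 1 was E2 and 1 was E7, which held 2.52% and 0.153% of the bases, and E5 held 93.3%.

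The order of states across blocks followed a small number of patterns. Of the blocks, 125354 had 2 or more segments. Read without regard to direction, they showed 8065 different orders, of which 5877 occurred once, but the 6 commonest orders accounted for 45.6% of these blocks. The commonest was E5-E4-E5 with 14450 blocks and a median of 5200 bp. Then came E2-E7 (11051 blocks, 800 bp), E2-E1-E7 (10222, 2600 bp), E1-E2 (9300, 2000 bp), E2-E1-E2 (7586, 3200 bp) and E5-E4-E5-E4-E5 (4594, 8800 bp). The orders from E5 and E4 and the order E2-E1-E2 alternated between an outer and an inner state. E2-E7, E1-E2 and E2-E1-E7 had different states at their ends.

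Blocks of chromosome 1A of the median length show these orders in steps of 200 bp. At 41747201 to 41749800 a bin of E7 was followed by 400 bp of E1 and 2000 bp of E2, so that accessibility, active start marks and H3K36me3 came in that order. At 222916001 to 222918000 an E1 segment of 400 bp led into 1600 bp of E2 with no E7 before it. At 13253801 to 13262600 E5 pieces of 5000, 3200 and 200 bp were parted by single bins of E4. At 53034601 to 53037800 a single bin of E1 parted E2 pieces of 2800 and 200 bp.

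**Figure D3:**
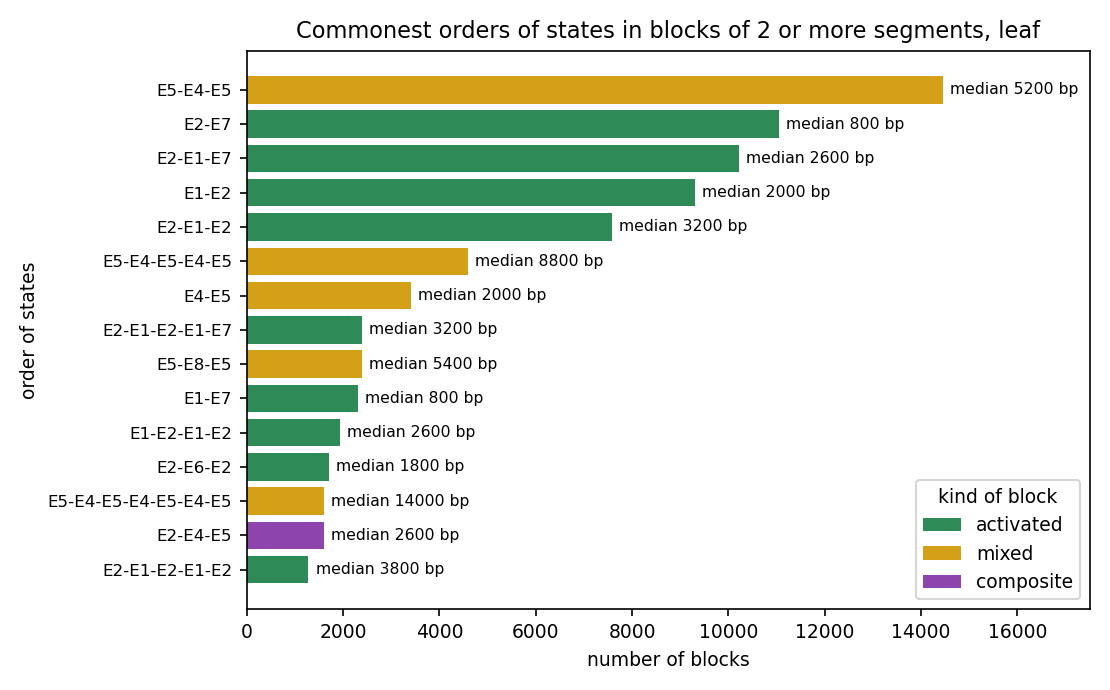
The 15 commonest orders of states among the 125354 leaf blocks of 2 or more segments, an order and its mirror image counted together. Bars give the number of blocks and are coloured by kind of block, and the median block length in bp is written beside each. The alternation E5-E4-E5 leads with 14450 blocks.

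Alternation made up much of the H3K27me3 landscape. Blocks that switched only between E5 at the ends and E4 within numbered 21527, 57.2% of all mixed blocks. Those with 1 inner E4 had a median of 5200 bp, with 3 a median of 14000 bp, and with 6 a median of 33000 bp. The inner E4 kept a median of 600 to 800 bp over 1 to 7 repeats, whereas the E5 pieces had medians between 1800 and 3300 bp. Up to 13 inner E4 segments occurred in 1 such block. The same form with E8 in place of E4 gave 2812 blocks, and E2 with inner E1 gave 9077.

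States kept to their places in a block. In blocks of 3 or more segments, 43.1% of all segments lay at a block end. For E7 this share was 75.3%, for E5 67.3% and for E2 66.2%, so these states formed the outside of blocks. E1 lay at an end in 12.7% of its segments, E4 in 4.07%, E3 in 1.51%, E8 in 1.39% and E6 in 0.491%. The 3 mixed states, E1 and E6 were therefore seldom the outermost state of these blocks. This does not place E1 in the middle, as the shares by bases below show.

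By bases, the 41561 activated blocks of 2 or more segments and at least 2000 bp were examined. Each was folded at its middle and each side was cut into 5 equal parts. Blocks of 1 state, such as E2 alone, have the same state from rim to middle and are not among them. E7 held 17.6% of bases in the outermost part, against 1.02% in the innermost. E2 held 63.9% in the outermost and 82.9% in the innermost part. E1 changed less, with 15.97% in the outermost and 11.6% in the innermost. E6 was lowest in the outermost part with 2.44%, highest in the next one with 5.54%, and still held 4.50% in the innermost. The share of accessible chromatin without other marks thus fell from the rim to the middle, and that of E2 rose. E2 was the largest state in every part, also at the rim.

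Whether blocks run from E1 to E2 was read from the 51216 activated blocks that held both. They made up 22.7% of activated blocks and 59.0% of their bases, with a median of 3000 bp. Leaving E6 and E7 aside, E1 was outermost at 1 end only in 62.9% of them, at both ends in 7.35% and at neither in 29.7%. These shares are partly set by the make-up of the blocks. A single E1 segment, as 67.3% of them held, cannot lie at both ends, and 1 E1 beside 1 E2 always gives the 1-ended form. Among the blocks with E1 at 1 end, an accessible segment lay outside the E1 end in 17886 and outside the E2 end in 2338. Of these outer accessible segments, 88.4% were on the E1 side.

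The 1-ended form became rarer with length. Blocks of up to 1000 bp had E1 at 1 end in 82.0% and held 1.10 E1 segments on average. Blocks of over 8000 bp had it at 1 end in 53.4% and at neither end in 40.8%, and held 1.97 E1 segments on average. The change with length cannot be told apart from the change in the number of segments. E1 at both ends was most frequent, with 9.23%, in blocks of 1000 to 2000 bp. Whether a long block spans more than 1 gene could not be asked, as gene positions of this build were not used here.

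Where activated and repressed chromatin met within a block, a mixed state often lay between them. There were 15026 such changes, of which 8943 ran over 1 mixed stretch and 6083, or 40.5%, were direct borders. Of the direct borders, 3500 joined E2 to E5, 2110 joined E7 to E5 and 472 joined E1 to E5. By count, E2 and E7 thus met E5 directly more often than E1 did. The count of E7 was one-sided along the chromosome, with E7 at the lower coordinate in 1867 of its borders with E5 and E5 in 243. Most mixed stretches had another place, since 76.9% of them had repressed chromatin on both sides and 10.4% lay between activated and repressed.

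Composite blocks held larger shares of E1, E2 and E7 at the rim than in the middle, while E5 was the largest state throughout. Their commonest order was E2-E4-E5 with 1595 blocks and a median of 2600 bp, so that E2 gave way to E5 over a stretch of the mixed state E4. E2-E4 followed with 1004 blocks, E2-E5 with 952, E5-E7 with 715 and E5-E8-E7 with 630. In the 12677 composite blocks of at least 2000 bp, folded in the same way, E5 held 55.6% of bases in the outermost and 69.8% in the innermost part. E2 held 19.9% in the outermost and 7.76% in the innermost part, and E7 held 9.20% and 1.02% of these parts. E1 held 3.88% and 2.12% of them, and E6 changed little, with 1.18% and 1.14%.

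Spacing between blocks covered a very wide range. The median E9 run between blocks was 3600 bp, and 26.95% of runs were at most 1000 bp. On the other side, 11.9% exceeded 100000 bp, and runs of 100000 to 1000000 bp held 69.1% of the unmodified bases between blocks. Short gaps were thus frequent, and long runs held most of the unmodified bases. The median was 5800 bp with segments under 600 bp counted as E9, 6000 bp with E6 and E7 counted as E9, and 10200 bp with runs of up to 1000 bp bridged. The longest E9 run spanned 11773200 bp on chromosome 1B, between 217766201 and 229539400.

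The distance between blocks depended on their kind. Neighbouring activated blocks were 2000 bp apart at the median, with 34.4% of these gaps at most 1000 bp. Neighbouring repressed blocks were 9000 bp apart, with 6.33% of gaps that short, and neighbouring mixed blocks 12600 bp, with 2.02%. Gaps over 100000 bp, however, were more frequent between activated blocks (13.0%) than between repressed (4.57%) or mixed blocks (6.89%). By the states that face each other, gaps between E7 and E7 had a median of 1800 bp, and gaps between E5 and E5 had a median of 10200 bp. Gaps over 100000 bp made up 10.6% between E7 and E7 and 5.13% between E5 and E5. A gap of a single bin was most frequent between E2 and E7 among pairs with over 1000 gaps, with 9.80% of 82354 gaps. The share was 7.55% between E2 and E2, 7.21% between E4 and E7 and 5.81% between E5 and E7. Between E7 and E7 it was 1.11%, and between E5 and E5 it was 0.552%.

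Blocks had neighbours of their own kind more often than the share of that kind among all blocks. The neighbour of an activated block was activated in 83.6% of cases, where 69.8% of all blocks are activated. The neighbour of a repressed block was repressed in 39.96%, where 13.5% of all blocks are, and mixed in 25.1%, where 11.6% are. The neighbour of a mixed block was mixed in 27.4%, but activated in 37.0% and repressed in 29.0%. Composite blocks had neighbours close to the make-up of all blocks, with 62.7% activated, 15.2% repressed and 14.8% mixed. Their neighbours were composite in 7.34%, where 5.14% of all blocks are. Without the outermost 10% of both chromosome ends, 27.8% of the neighbours of repressed blocks were repressed, where 7.38% of the blocks there are.

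Single-state blocks lay at different distances from E1. The nearest E1 was 10400 bp away at the median for E7 alone, 25200 bp for E2 alone and 86000 bp for E5 alone. Only 8.24% of the E7 blocks lay within 1000 bp of an E1 segment, and 20.1% lay over 100000 bp from one. A block of 1 state cannot touch E1 by its definition, so these distances only describe how far E1 lay beyond the E9 around it. Within 10000 bp of E1 lay 49.5% of the blocks of E7 alone, 37.1% of E2 alone and 15.6% of E5 alone.

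Along the chromosomes, block density, kind and E5 length changed together, while the median gap and the E1 neighbourhood changed less. With each chromosome cut into 20 equal parts, density was 39.1 blocks per Mb in the first part, 10.9 in the seventh and 46.3 in the last. Activated blocks made up 41.7% of blocks in the first part, 93.4% in the eighth and 45.8% in the last. Repressed blocks made up 30.9%, 3.12% and 26.6% of the same parts. The middle of the chromosomes was thus poor in blocks, and those it had were nearly all activated.

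Mean E5 length was 5212 bp in the first part and 1700 bp in the eleventh, whereas mean E2 length ran the other way, with 1364 bp in the first, 1950 bp in the ninth and 1265 bp in the last part. Mixed blocks were shorter in the middle too, with medians of 10400 bp in the first and 2800 bp in the eighth part. By contrast the median E9 run stayed between 3000 and 5200 bp, and the share of E1 segments that touch E2 between 77.3% and 87.9%. The share of runs over 100000 bp was 4.07% in the first, 25.5% in the seventh and 3.18% in the last part. The lower density in the middle thus went with more of the longest gaps, while the median gap moved little.

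**Figure D4:**
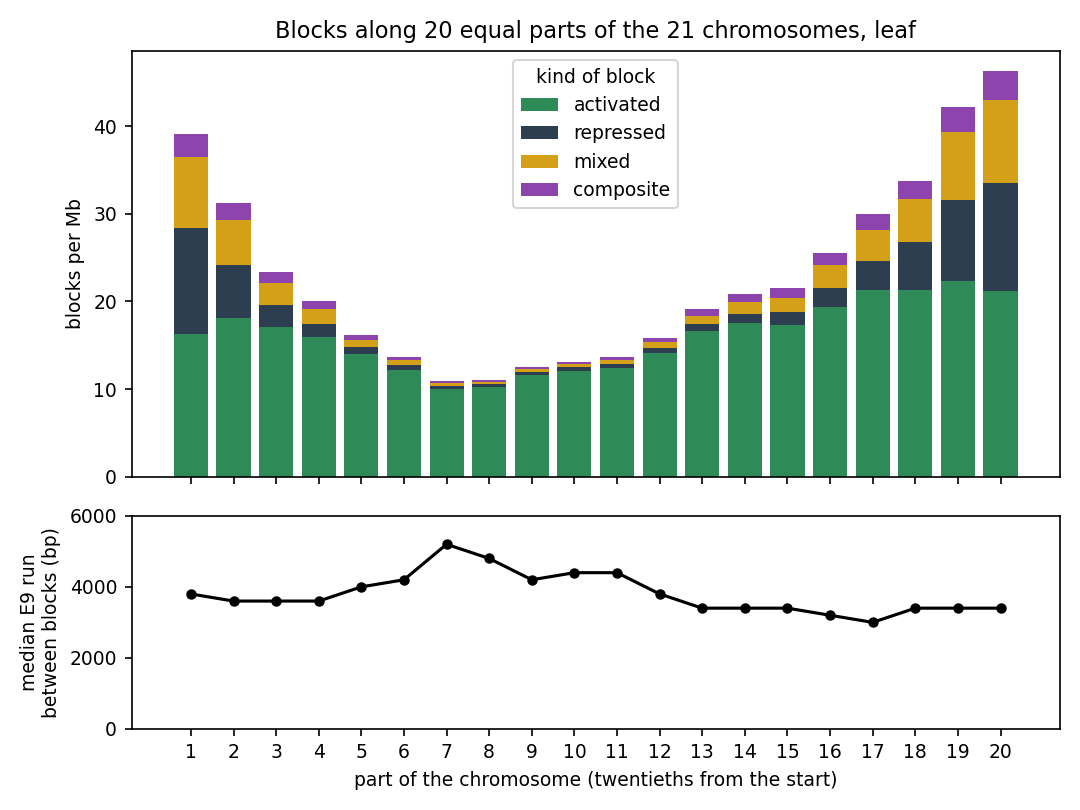
Blocks along 20 equal parts of the 21 chromosomes of leaf, with the number of blocks per Mb by kind of block (top, stacked bars) and the median E9 run between blocks in bp (bottom). Density is 39.1 blocks per Mb in the first part, 10.9 in the seventh and 46.3 in the last, while the median gap stays between 3000 and 5200 bp.

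The last question was whether the sub-genomes differ in this layout. They held nearly equal numbers of blocks, 106848 in A, 109992 in B and 106780 in D. The D chromosomes are shorter in sum, with 3951 Mb, against 4935 Mb for A and 5180 Mb for B, so blocks stood closer in D. Sub-genome A had 21.6 ± 1.91 blocks per Mb, B had 21.2 ± 2.56 and D had 26.95 ± 2.38 (SD, n = 7 chromosomes each). A was lower than D in 7 of 7 chromosome groups, and so was B.

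By state, A held 31082 E1 segments, B 27704 and D 29300, and the median E1 segment was 400 bp in each. E5 had 51795 segments in A, 56327 in B and 52292 in D, with medians of 1800, 2000 and 2000 bp. The median E2 segment of 600 bp and the median E7 segment of 200 bp were also equal in A, B and D. The longest E9 run between blocks was 4723400 bp in A, 11773200 bp in B and 2036200 bp in D.

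The differences were -5.34 blocks per Mb for A minus D and -5.79 for B minus D, each with an exact permutation p of 0.0156 (two-sided, signs flipped over 7 groups), the smallest this design can give. Adjusted over all 24 comparisons by the Benjamini-Hochberg method, p was 0.0536 for both exact tests, so neither passed a threshold of 0.05. Without chromosome group 1, which holds 1B, the difference B minus D was -4.67 blocks per Mb. The median E9 run was 3829 ± 571 bp in A, 3971 ± 407 bp in B and 3000 ± 383 bp in D (SD, n = 7 chromosomes each). The difference B minus D was 971 bp, and 1914 bp with E6 and E7 counted as E9. The run was longer in A than in D and longer in B than in D in 7 of 7 groups, with the same exact permutation p of 0.0156 and adjusted p of 0.0536.

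The share of blocks made of 1 state was 59.8 ± 1.13% in A, 62.8 ± 1.06% in B and 61.2 ± 0.997% in D (SD, n = 7 chromosomes each). A was lower than B in 7 of 7 groups, with a difference A minus B of -3.04 percentage points (exact permutation p = 0.0156, adjusted p = 0.0536). With segments under 600 bp counted as E9 this difference was -0.566 points (exact permutation test, adjusted p = 0.402). Over all chromosomes, repressed blocks made up 12.3% of the blocks of A, 15.7% of B and 12.3% of D, a description without a test. The difference in mean E2 length, A minus D, was -45.02 bp, and the share of modified bases in composite blocks was 9.12% in B against 10.4% in D. Both reached the same exact permutation p of 0.0156 and adjusted p of 0.0536, in 7 of 7 groups. The composite difference, B minus D, was -1.25 points, but -0.323 with segments under 600 bp counted as E9, -0.684 with E6 and E7 counted as E9, -0.515 without the chromosome ends and -0.816 without chromosome group 7.

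Of the 24 comparisons, 7 gave the smallest possible p, 11 had an unadjusted p under 0.05 and 0 had an adjusted p under 0.05 by the exact sign-flip permutation test. With 7 pairs of chromosomes, 8 comparisons at the smallest p would have been needed for any to pass. The spread is between chromosomes of 1 segmentation and holds no spread between plants. Mean E5 length gave no such order. It was 3520 ± 1018 bp in A, 3681 ± 832 bp in B and 3557 ± 511 bp in D (SD, n = 7 chromosomes each), with adjusted p of 0.772 or more in the exact permutation tests. The range within A, with 5543 bp on 4A as the highest and 2639 bp on 5A as the lowest of all 21 chromosomes, exceeded any difference between sub-genomes.

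**Figure D5:**
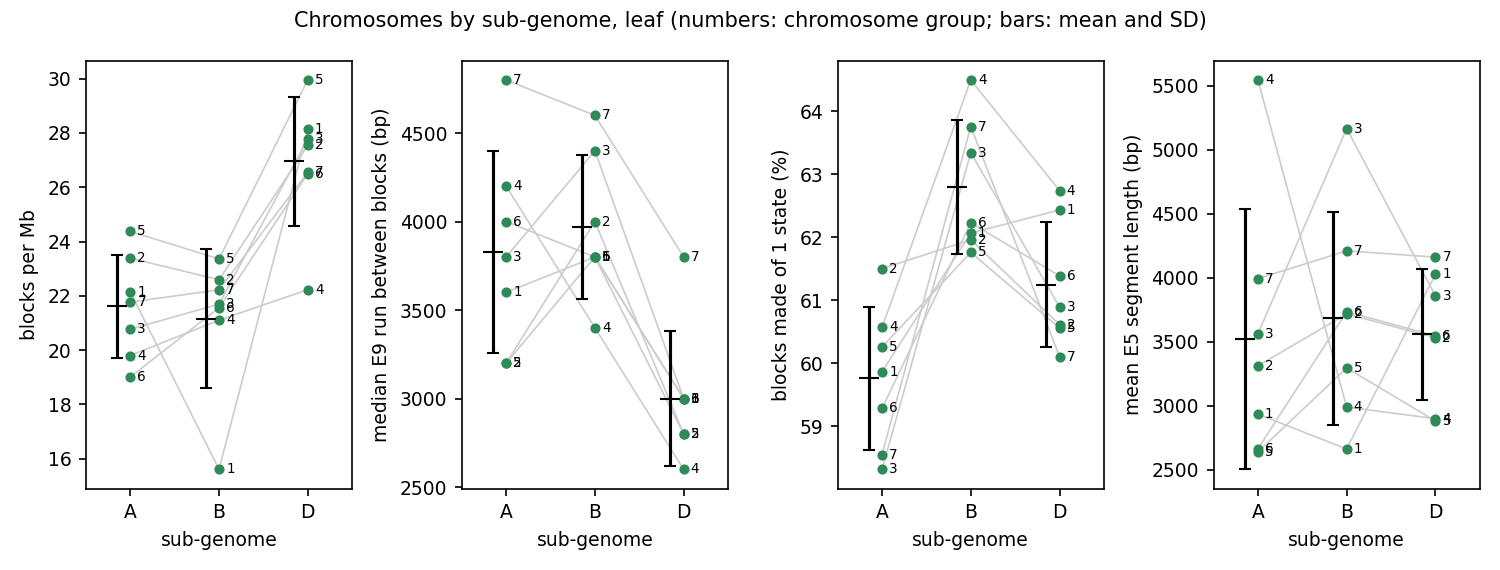
Blocks per Mb, median E9 run between blocks (bp), share of blocks made of 1 state (%) and mean E5 segment length (bp) of the 21 chromosomes of leaf, by sub-genome A, B and D. Points are chromosomes, labelled with and joined by their group number, and black bars give the mean and SD of 7 chromosomes. The D chromosomes lie highest for density in all groups, and 1B lies lowest of all with 15.6 blocks per Mb. The axes do not start at 0.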

How the data were processed

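The segmentation is the authors' own. Per the study's methods, reads were checked with fastp 0.21.0, aligned to IWGSC RefSeq v1.0 with Bowtie2 (2.3.5.1 per the labels), filtered on mapping quality with SAMtools and freed of duplicates with Picard, and peaks of ATAC-seq and of the 4 marks were given to ChromHMM. How replicates were combined, how histone peaks were called, and how the model was trained are not given in the sources used here. The deposited values are state labels, with no signal, score or read number, so the depth per library is unknown and a weak mark cannot be told apart from an absent one. The mapping quality filter removes reads that fit several places, so repeats and near-identical gene copies can appear as E9. The authors joined accessible peaks that lay close together.

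Each record has 4 fields, and the records cover the 21 chromosomes in bins of 200 bp, with no overlap. Columns of values without a condition numbered 0. Equal neighbours were merged, and borders, blocks and E9 runs were counted. The unit of the sub-genome test was the chromosome, with 8 measures and 3 pairs of sub-genomes, a two-sided exact sign-flip permutation test over 128 patterns, and Benjamini-Hochberg adjustment. The same routines were tested on made-up segmentations with known borders. Alternatives were segments under 600 bp set to E9, E9 runs of up to 400 bp or 1000 bp bridged, E6 and E7 set to E9, chromosome 1B or the outermost 10% of both chromosome ends left out, and each of the 7 chromosome groups removed once.

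Regions are the longest segment of each state, the longest block of each kind, the block with the most segments, the longest E9 run, and for the 6 commonest orders a block of median length on 1A, of which 4 are given. The highest and lowest chromosomes are named for measures where the text uses them. The measures and regions were chosen with earlier results of these data known. Gene positions were not used here, since the gene table given is of another build, and no sequence is shown. Python 3.11.15, numpy 2.4.6, scipy 1.17.1 and matplotlib 3.10.9 were used.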

Additional observations from a re-analysis of the deposited data

Results flagged for a closer look

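Chromosome 1B had 15.6 blocks per Mb, far below the other B chromosomes, of which the nearest was 4B with 21.1 and the highest 5B with 23.4. The gap to 4B was 0.709 of the whole range of the 7 values. Chromosome 1B also holds the longest E9 run, and its median E9 run of 3800 bp was no longer than the mean of B.

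Chromosome 7D had a median E9 run between blocks of 3800 bp, above the other D chromosomes, whose highest was 3000 bp and whose lowest, 4D, was 2600 bp. The gap was 0.667 of the range. Of the 24 sets of 7 chromosomes examined (8 measures in 3 sub-genomes), these 2 had a gap above the 95% critical value of Dixon's test, and chance gives about 1 such set in 20.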

How the results depend on the processing

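With segments under 600 bp set to E9, the number of segments was 597358 (1603362 as deposited), the median block 1800 bp, the share of blocks made of 1 state 78.0%, that of E1 segments beside E2 56.6%, that of E5 segments with E9 on both sides 55.4%, that of blocks with E1 at 1 end 77.9%, the median E9 run 5800 bp and the share of repressed neighbours of repressed blocks 52.9%. With E9 runs of up to 400 bp bridged, the same measures were 1400 bp for the median block, 55.4% for 1 state, 84.3% for E1 beside E2, 25.2% for lone E5 and 60.8% for E1 at 1 end. With runs of up to 1000 bp bridged, the median block was 2200 bp, 48.5% of blocks had 1 state, 58.6% had E1 at 1 end, the median E9 run was 10200 bp and 41.1% of neighbours of repressed blocks were repressed. With E6 and E7 set to E9, the median block was 1600 bp, 60.1% had 1 state, 27.8% of E5 segments stood alone, 67.7% had E1 at 1 end, the median E9 run was 6000 bp and the repressed share 41.5%. Without the outermost 10% of both chromosome ends, 62.8% of blocks had 1 state, 85.2% of E1 segments touched E2, 25.6% of E5 segments stood alone and the repressed share was 27.8%. With states merged into classes, 83.6% of blocks had 1 class. Each of these values, apart from the numbers of segments, which have no interval, lies outside the 95% interval of the reported one. This interval treats the segments or blocks of 1 segmentation as independent units. It is therefore narrow and holds no spread between plants, and a value outside it can still be close to the reported one. The number of blocks stayed between 236410 and 283447 under the 4 settings that bridge or remove segments, and leaving out 1B moved none of the 4 measures tried without it beyond its interval. Chromosome 1B holds 10769 of the 323620 blocks, so leaving it out could move these measures little.

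For the sub-genomes, 0 of 24 comparisons passed after adjustment by the exact sign-flip permutation test under any of the 11 settings tried. At an unadjusted p under 0.05 the number was 5 without the chromosome ends, and with 1 chromosome group left out it was between 7 (without group 7) and 10 (without group 4), where 6 groups cannot give a p below 0.0312. Of 121 values of the 11 comparisons with an unadjusted p under 0.05, 120 kept their sign, but some changed in size. For the 7 comparisons at the smallest possible p, all 7 groups lay on the same side. Leaving out 1 group could not change their sign, so that part of the count was fixed in advance. The share of modified bases in composite blocks, A minus D, was -0.748 points as reported, -0.00740 with segments under 600 bp set to E9, -0.259 with E6 and E7 set to E9, -0.0164 without the chromosome ends and -1.30 with runs of up to 400 bp bridged. The share of blocks made of 1 state, B minus D, was 1.55 points as reported and 0.493 without the chromosome ends, and A minus D was -0.792 with E6 and E7 set to E9. The median E9 run, B minus D, was 1886 bp with short segments set to E9. The one that changed sign was the share of blocks made of 1 state, A minus D, which was 1.49 percentage points with short segments set to E9, against -1.49 as reported. No paired analysis was possible because leaf is given as 1 segmentation, in which the replicates are no longer separate. The pairing of chromosomes by group in the sub-genome test is another matter and uses no replicate.

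The depth behind the peaks is unknown, and a state that needs several marks is called only where each passed its own peak threshold.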

Other observations

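The frequent pairs of neighbouring states were met about equally often in either order along the chromosome. Among the 10 pairs with at least 10000 borders, no order exceeded 51.1%. E7 beside E5 was different. E7 came first, at the lower coordinate, in 1867 of 2110 borders, or 88.5%, and E5 came first in 243. On each of the 21 chromosomes E7 was first in the majority of these borders, with 7B lowest (79.5%) and 6A highest (93.4%). E7 with E4 behaved likewise, with E7 first in 437 of 554 borders, or 78.9%, again in the majority on each chromosome. All 29 borders of E4 with E6 had E4 first. Among the other 21 pairs with at least 1000 borders, the highest share of 1 order was 56.5%, for E7 with E8, where E8 came first.

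The one-sidedness was seen on the side of E9 too, with E9-E7-E5 in 1325 places and its mirror image in 138. Where E8 lay between E5 and E7, the order E5-E8-E7 occurred 1113 times and E7-E8-E5 809 times. Where a single bin of E9 lay between them, E7 came first in 890 cases and E5 in 745, and with 400 bp of E9 in 803 and 938. The direct borders of activated with repressed chromatin include these 2110.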
